A study of Mus musculus with 9 samples.

Results

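The let-7 family was followed through 9 mouse liver libraries as 10 mature microRNA (miRNA) rows of a table of 946. The members were chosen by name: the 9 guide strands mmu-let-7a-5p, mmu-let-7b-5p, mmu-let-7c-5p, mmu-let-7d-5p, mmu-let-7e-5p, mmu-let-7f-5p, mmu-let-7g-5p, mmu-let-7i-5p and mmu-miR-98-5p, with 1 partner strand, mmu-let-7d-3p. All 10 rows were found, and all 10 were among the 360 miRNAs abundant enough to be tested.

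All animals were wild-type C57 BL6 mice of 8 weeks with a mean weight of 20 g, and small RNA was sequenced from total liver RNA. Control mice received saline. APAP mice received 500 mg/kg acetaminophen (APAP), which injures the liver at high dose, into the peritoneum. dmPGE2+APAP mice received 300 µg/kg dmPGE2, a methylated prostaglandin E2 analog, by the same route 1 h before that dose of APAP. Livers were taken 6 h after APAP, with 3 libraries in each group. No group received dmPGE2 alone, so its effect could be measured only together with APAP. The columns assigned to Control carry the prefix BC, which the sample labels do not use: the assignment follows from Control being the remaining group. Nothing in the labels says that the libraries come from separate animals, so p-values measure the spread between libraries, which may be technical.

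Let-7 miRNAs are made from hairpin precursors. The 5p strand of each hairpin is normally loaded as the guide and pairs through its seed, bases 2 to 8, with messenger RNAs, which it represses; the 3p strand is usually discarded. The family is abundant in differentiated adult tissue, liver included, is held down in embryonic cells by the RNA-binding protein LIN28, and is known for repressing growth genes such as Hmga2, Myc and the Ras genes.

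The sequences below, 5′ to 3′ with the seed in capitals, are shown because they define the family and show how little separates the rows counted here. They are the RefSeq mature sequences of build GRCm38.p6, which held all 10 members.
mmu-let-7f-5p: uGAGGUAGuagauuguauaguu
mmu-let-7g-5p: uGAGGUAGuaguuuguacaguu
mmu-let-7a-5p: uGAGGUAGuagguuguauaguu
mmu-let-7i-5p: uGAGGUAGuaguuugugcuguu
mmu-let-7c-5p: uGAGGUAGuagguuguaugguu
mmu-let-7b-5p: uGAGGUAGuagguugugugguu
mmu-let-7d-5p: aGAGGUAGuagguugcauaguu
mmu-miR-98-5p: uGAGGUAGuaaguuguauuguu
mmu-let-7e-5p: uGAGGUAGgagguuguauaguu
mmu-let-7d-3p: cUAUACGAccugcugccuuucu

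The 9 5p members share the seed GAGGUAG. Of the 795 table rows matched to a RefSeq sequence, 10 carry it, and the remaining one, let-7k, held 1 read in all libraries. The seed of let-7d-3p, UAUACGA, was found in 1 of those rows, its own. All 10 members are 22 nucleotides long, so their counts can be set side by side without a length correction, although ligation efficiency differs between small RNAs.

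Among the 36 pairs of 5p members, 4 pairs differ at a single base. With positions counted from the 5′ end and the let-7a-5p base first, let-7c-5p differs from let-7a-5p by A19G, let-7e-5p by U9G and let-7f-5p by G12A. Let-7b-5p and let-7c-5p are the fourth such pair. How reads fitting more than 1 of these sequences were assigned is not given in the sources used here, so the split between close members is uncertain.

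The members are encoded by 12 hairpins on 7 chromosomes (GRCm38.p6, the build also called mm10). Let-7d lies with let-7f-1 and let-7a-1 in 2261 bases of chromosome 13 (48536012 to 48538272, minus strand). Let-7c-2 and let-7b share 801 bases of chromosome 15 (85706603 to 85707403, plus strand), within the span of the lncRNA gene Lncppara. Let-7f-2 and miR-98 share 976 bases of chromosome X (151912346 to 151913321, plus strand), within the span of the protein-coding gene Huwe1. Let-7g (chromosome 9, 106178840 to 106178927, plus strand) lies within the span of Wdr82, and let-7e (chromosome 17, 17830352 to 17830444, plus strand) within that of Spaca6. Let-7i (chromosome 10, 122985640 to 122985724, minus strand), let-7a-2 (chromosome 9, 41536716 to 41536811, plus strand, inside Mir100hg) and let-7c-1 (chromosome 16, 77599657 to 77599750, plus strand) complete the set. Since let-7a-5p, let-7c-5p and let-7f-5p each come from 2 hairpins, their counts cannot be divided between loci.

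Libraries held between 1038799 and 10483460 miRNA reads, Control libraries being the deepest group. The lowest count of any member in any library was 109 reads, for miR-98-5p in dmPGE2+APAP replicate 2, the shallowest library. Markers of the liver's main cell type were present, with miR-122-5p at 157840 to 323930 CPM (reads scaled to a common library size with TMM factors, which assume that most miRNAs do not change). Scaling decides part of what follows. With library totals in place of TMM, the median log2 change of all 360 tested miRNAs moved from -0.05 to 0.20 after APAP, and from -0.03 to 0.19 with both agents against Control. In bulk liver, fewer cells of a type and less RNA per cell cannot be told apart.

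Let-7f-5p was the most abundant member and ranked 9 among the 360 tested miRNAs. It held 19025, 20511 and 18685 CPM in Control, 17823, 18723 and 14366 CPM in APAP, and 16813, 12593 and 14501 CPM in dmPGE2+APAP. The dmPGE2+APAP libraries all lay below the Control libraries, while APAP overlapped both groups. Next was let-7g-5p, made from a hairpin of its own. Its levels were 10297, 11548 and 8061 CPM in Control, 10686, 10634 and 8058 CPM in APAP, and 9555, 6995 and 8015 CPM in dmPGE2+APAP, with overlap between all groups.

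Let-7a-5p, whose sequence is the reference form of the family, held 3351, 3874 and 3737 CPM in Control and 3597, 3455 and 2933 CPM in APAP. In dmPGE2+APAP it held 3272, 2623 and 2679 CPM, below every Control library. Let-7i-5p held 2508, 2810 and 1985 CPM in Control, 2867, 2555 and 2273 CPM in APAP, and 2253, 1841 and 1956 CPM in dmPGE2+APAP. Every library with both agents was below every APAP library for let-7i-5p, and Control overlapped both. Let-7c-5p overlapped in every comparison, at 1732, 1907 and 2066 CPM in Control, 1987, 1614 and 1499.7 CPM in APAP, and 1783, 1424 and 1381 CPM in dmPGE2+APAP.

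The other members were scarcer. Let-7b-5p had group means of 598 ± 41.0 CPM in Control, 574 ± 76.7 after APAP and 574 ± 93.8 with both agents (SD, n = 3). Let-7d-5p, the only 5p member that starts with A, had 321 ± 72.3, 283 ± 42.9 and 262 ± 25.1 CPM in the same order. For both, the ranges of the groups overlapped.

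MiR-98-5p, a let-7 member in seed though not in name, held 118, 151 and 107 CPM in Control, 236, 141 and 132 CPM in APAP, and 178, 92.9 and 113 CPM in dmPGE2+APAP. The first replicate was the highest library in both treated groups, and no pair of groups was separate. Let-7d-3p held 88.0, 121 and 105 CPM in Control, 173, 124 and 186 CPM in APAP, and 192, 112 and 107 CPM in dmPGE2+APAP. It was the only member whose APAP libraries all lay above all Control libraries, though by a narrow margin, 124 CPM in APAP replicate 2 against 121 CPM in Control replicate 2. Let-7e-5p held 96.0, 78.4 and 143 CPM in Control, 92.3, 75.9 and 95.4 CPM in APAP, and 87.1, 98.0 and 88.3 CPM in dmPGE2+APAP, with the widest spread in Control and overlap between all groups.

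**Figure D1:**
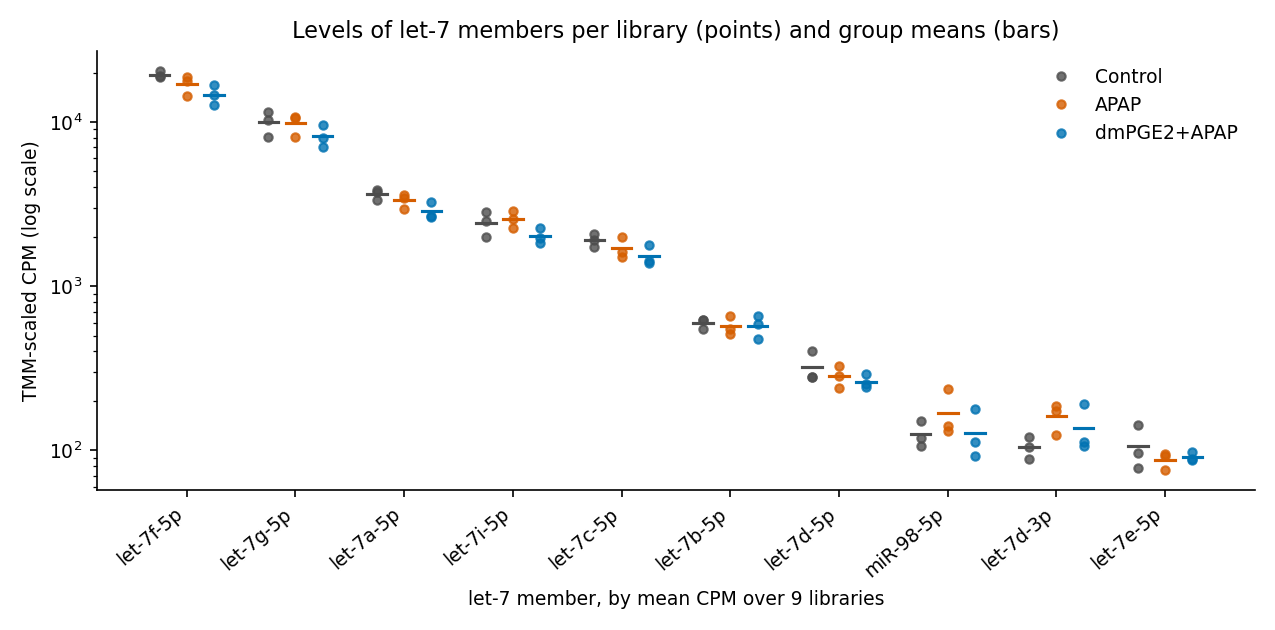
TMM-scaled CPM (log axis) of the 10 let-7 members, ordered by mean over 9 libraries, with 1 point per library, colours for Control, APAP and dmPGE2+APAP, and bars for group means. Levels run from 17005 CPM for let-7f-5p to 94.9 CPM for let-7e-5p, a spread far larger than any difference between groups.

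Over all libraries the order was let-7f-5p (mean 17005 CPM), let-7g-5p (9317), let-7a-5p (3280), let-7i-5p (2338), let-7c-5p (1710), let-7b-5p (582), let-7d-5p (289), miR-98-5p (141), let-7d-3p (134) and let-7e-5p (94.9). Down to miR-98-5p, each member exceeded the next in 9 of 9 libraries, except that let-7i-5p exceeded let-7c-5p in 8 of 9. MiR-98-5p exceeded let-7d-3p in 6 of 9 libraries and let-7d-3p exceeded let-7e-5p in 7 of 9. The ranges of miR-98-5p and let-7d-3p overlapped in every group, so these neighbours were not separated by the spread between libraries.

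Within the family, let-7f-5p made up 50.5% ± 1.73 of all reads of the 9 5p members in Control, 47.8% ± 1.37 in APAP and 48.3% ± 0.914 with both agents (SD, n = 3). Let-7f-5p, let-7g-5p and let-7a-5p together made up 85.8% ± 0.328, 84.8% ± 1.37 and 84.7% ± 1.02. These shares need no scaling between libraries, and the groups overlapped for both.

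As a share of all miRNA reads, the 9 5p members held 3.41, 3.17 and 3.70% in Control and 4.03, 3.67 and 3.58% in APAP. In dmPGE2+APAP the share was 3.52, 3.00 and 3.04%, lower than in any APAP library, and Control overlapped both. With the TMM-scaled size in the denominator, the APAP minus Control difference in this share changed from 0.33 to -0.30 percentage points.

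The first comparison asked what APAP alone did to the family. No member passed the test against Control: 0 of 10 were called (edgeR's quasi-likelihood test, adjusted p below 0.05), where 0.833% of all 360 miRNAs were. At an unadjusted p below 0.05 there was 1 of 10, let-7d-3p, against 9.72% of all miRNAs. Of the 10 members 7 had log2 changes below 0, with a median of -0.10, beside 55.3% of all miRNAs and a median of -0.05. The member median was -0.17 without APAP replicate 1, -0.03 without APAP replicate 3, -0.05 without Control replicate 3 and 0.0033 without Control replicate 2. DESeq2, limma-voom and every other setting tried also called 0 members.

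Let-7d-3p averaged 105 ± 16.5 CPM in Control and 161 ± 32.9 in APAP (SD, n = 3), a log2 difference of 0.62 (SE 0.25, 95% interval 0.08 to 1.15) with edgeR's adjusted p at 0.389. Without APAP replicate 3 this difference was 0.51, and without APAP replicate 2 it was 0.79. MiR-98-5p had the next highest difference, 0.44 (SE 0.28, interval -0.15 to 1.02, edgeR's adjusted p 0.588), and without APAP replicate 1 it was 0.14. The lowest was that of let-7e-5p, -0.27 (SE 0.23, interval -0.76 to 0.22), which was 0.030 without Control replicate 3. Among the abundant members, let-7f-5p stood at -0.19 (interval -0.59 to 0.20), let-7a-5p at -0.13 (-0.52 to 0.25) and let-7g-5p at -0.03 (-0.46 to 0.41). Without APAP replicate 3 let-7f-5p stood at -0.07 and let-7a-5p at -0.03. For these 3 members the intervals leave out a doubling or a halving of the level, while smaller differences in either direction lie inside them.

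Direction after APAP depended on the scaling. With library totals 9 of 10 members had log2 changes above 0, with a median of 0.15 beside 0.20 for all miRNAs, and with the deposited TPM values 10 of 10 did. Groups did not overlap for 1 member under TMM (let-7d-3p, higher; 8.61% of all miRNAs were higher in this way and 8.06% lower). On library totals 4 members were higher without overlap, let-7d-3p, let-7g-5p, let-7i-5p and miR-98-5p, against 16.4% of all miRNAs, and 0 were lower, against 1.67%.

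**Figure D2:**
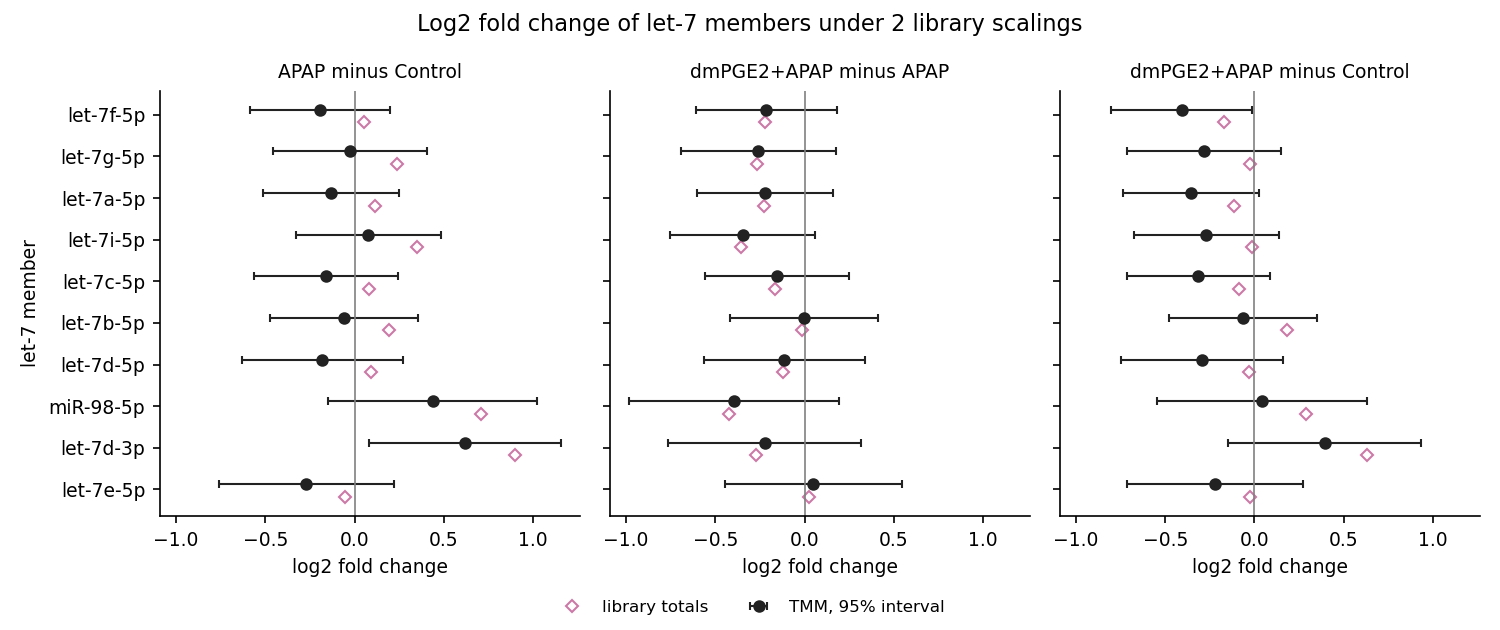
Log2 fold changes of the 10 members in 3 comparisons, as filled circles with 95% intervals for edgeR on TMM-scaled counts and as open diamonds for library totals. After APAP the diamonds lie to the right of the circles, and 7 of 10 circles but 1 of 10 diamonds lie below 0.

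Because a ratio of reads within 1 library is free of library scaling, each member was also expressed as a share of all 5p let-7 reads. That sum includes the 5p member itself, so the shares are tied together and a lower share of 1 raises others. Let-7f-5p alone averaged 50.5% of the sum in Control and 47.8% in APAP. Let-7i-5p made up 6.61, 6.71 and 5.56% of all 5p let-7 reads in Control and 7.49, 6.72 and 7.54% in APAP. MiR-98-5p made up 0.312, 0.361 and 0.299% in Control against 0.616, 0.372 and 0.437% in APAP. Both shares were higher in every APAP library than in any Control library, though by a narrow margin in APAP replicate 2 in both cases.

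Let-7d-3p gave 0.232, 0.289 and 0.295 reads per 100 5p let-7 reads in Control, 0.452, 0.325 and 0.616 in APAP. With both agents the values were 0.551, 0.420 and 0.362, with no overlap between Control and either treated group. Measured against the same let-7 reads, 9.44% of all 360 miRNAs were higher without overlap in APAP than in Control and 3.33% were lower. For dmPGE2+APAP against Control the figures were 15% and 2.78%. Of the 10 members, 3 were thus higher after APAP and 1 with both agents, and 0 were lower in either.

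**Figure D3:**
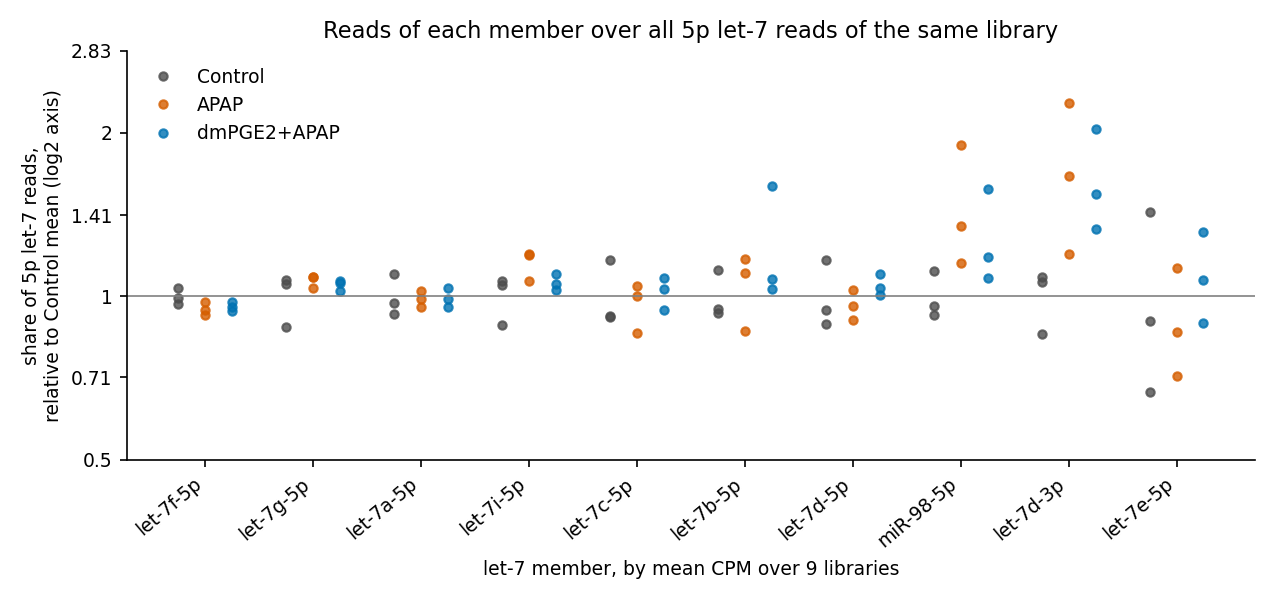
Reads of each member over all 5p let-7 reads of the same library, divided by the Control mean (log2 axis), with 1 point per library and colours for the 3 groups. The abundant members stay close to 1, and every treated point of let-7d-3p lies above its 3 Control points.

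The let-7d hairpin is the only one with both arms among the members. Its arms lay closer in level than those of let-7b, let-7e and let-7i. In Control, 24.8% ± 2.34 of let-7d reads (SD, n = 3) came from the 3p arm. The 3p arm gave 1.31% ± 0.278 for let-7b, 2.34% ± 0.602 for let-7e and 0.135% ± 0.00514 for let-7i.

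After APAP the let-7d arms lay closer together. There were 3.18, 3.34 and 2.64 reads of let-7d-5p per read of let-7d-3p in Control, 1.88, 2.31 and 1.29 in APAP. With both agents there were 1.51, 2.17 and 2.37. Every treated library lay below every Control library, and the treated groups overlapped each other. The 3p arm accordingly made up 36.2% ± 6.85 of let-7d reads in APAP and 33.7% ± 5.41 in dmPGE2+APAP.

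On the log2 scale the ratio of 5p to 3p was 1.60 ± 0.18 in Control, 0.83 ± 0.43 in APAP and 0.99 ± 0.34 with both agents (SD, n = 3). APAP minus Control was -0.78 (SE 0.27), and the exact two-sided permutation test gave p = 0.1, the lowest p possible with 3 libraries a side. The difference between dmPGE2+APAP and Control was -0.62 (SE 0.22, exact permutation p = 0.1). Adjusted over the 3 comparisons, p was 0.15 for both. With 3 libraries a side this test cannot fall below 0.05 whatever the data, so not passing is no evidence of equal ratios. Both comparisons use the same Control libraries.

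Between dmPGE2+APAP and APAP the arm ratio differed by 0.16 (SE 0.32, exact permutation p = 0.6), and without APAP replicate 3 the sign of this difference turned, to -0.07. Leaving out single libraries gave -0.97 to -0.55 for APAP minus Control, the latter without APAP replicate 3, and -0.75 to -0.42 for dmPGE2+APAP minus Control.

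The same ratio was formed for all 98 hairpins with both arms tested. A read was added to both arms of any hairpin with an arm that had no reads in some library, which was not so for let-7d. In 12.2% of them the ratio was lower in APAP than in Control without overlap, and in 15.3% it was lower in dmPGE2+APAP than in Control. Ordered from the lowest difference, let-7d stood at place 8 of 98 for APAP and place 22 for both agents. The medians over all 98 hairpins were -0.04 and -0.20. The hairpins placed lower than let-7d for APAP were counted on fewer reads. Their scarcer arm averaged from 9.89 (miR-331) to 99.7 (miR-21a) reads per library, against 836 for let-7d. For let-7b, let-7e and let-7i the APAP minus Control differences were -0.19 (SE 0.30), -0.07 (SE 0.54) and -0.08 (SE 0.32), and their groups overlapped. Their 3p arms held as few as 13, 2 and 3 reads in a library, against at least 131 for let-7d-3p, so their ratios are less certain.

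**Figure D4:**
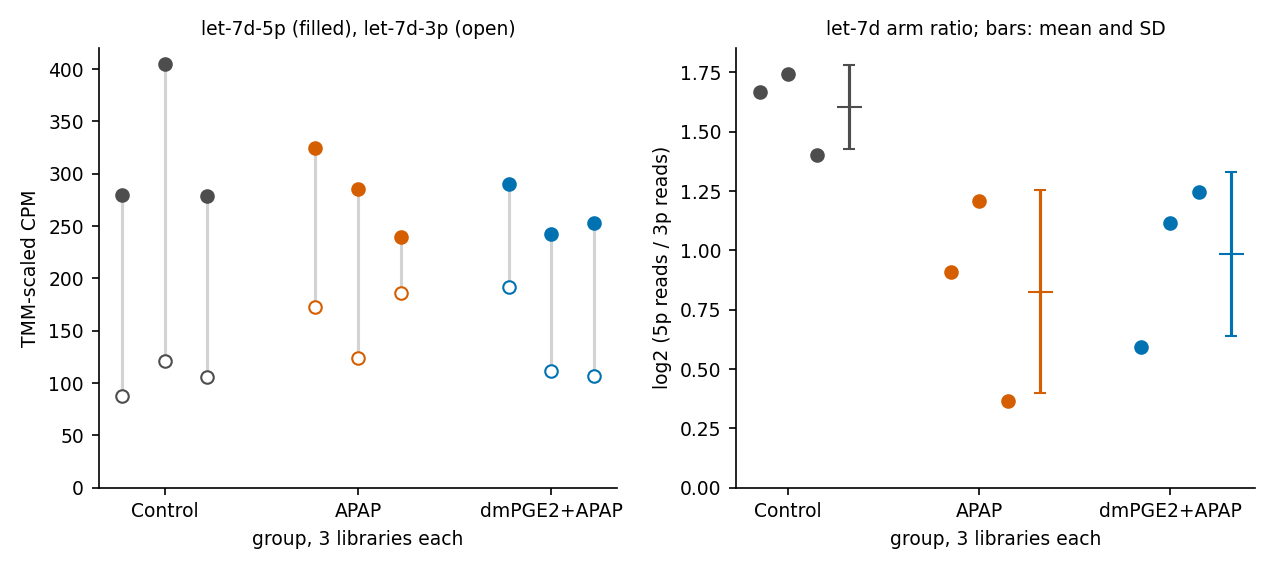
Left, TMM-scaled CPM of let-7d-5p (filled) and let-7d-3p (open), joined per library; right, log2 of 5p reads over 3p reads per library with the group mean and SD (n = 3). The 3 Control ratios, from 1.40 to 1.74, lie above all 6 treated ratios, which run from 0.37 to 1.25.

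Markers of other cell types were read in the same libraries, and 0 were called after APAP. The red-cell markers (miR-451a, miR-144-3p, miR-144-5p and miR-486a-5p) had log2 changes above 0 after APAP in 4 of 4, with a summed level of 431 to 543 CPM in Control, 731 to 1398 after APAP and 352 to 379 with both agents. The myeloid markers (miR-223-3p, miR-142a-3p and miR-142a-5p) were above 0 in 3 of 3, with 118 to 228, 168 to 309 and 147 to 233 CPM. Most of this sum is miR-142a-5p, which overlapped between all groups. MiR-223-3p averaged 13.5, 27.7 and 13.7 CPM in the same order. It was higher in APAP than in Control without overlap (8.61% of all miRNAs were). With both agents it and miR-142a-3p were lower than in APAP without overlap (8.06% of all miRNAs were). The hepatocyte markers (miR-122-5p, miR-122-3p, miR-192-5p and miR-148a-3p) were above 0 after APAP in 0 of 4, with 370330 to 521000 CPM in Control, 325040 to 384360 in APAP and 349210 to 388010 with both agents.

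Endothelial markers (miR-126a-3p and miR-126a-5p) were above 0 after APAP in 2 of 2, with summed levels of 7437 to 9115 CPM in Control, 7990 to 9434 after APAP and 8788 to 10174 with both agents. Muscle markers (miR-1a-3p, miR-133a-3p and miR-499-5p) were above 0 in 0 of 3, with 481 to 2699, 313 to 902 and 339.8 to 720 CPM. The lymphoid marker miR-150-5p held 1.91 to 24.5, 13.9 to 20.0 and 17.0 to 24.7 CPM. No marker was at 0 in all libraries. The only marker called in any comparison was miR-451a, which makes up most of the red-cell sum. It held 1172, 639 and 590.2 CPM in APAP against 291, 279 and 314 CPM with both agents, and fell by 1.44 on the log2 scale (SE 0.25, edgeR's adjusted p 0.00993). From APAP to both agents, 0 of 4 red-cell and 0 of 3 myeloid markers had log2 changes above 0. For hepatocyte markers it was 3 of 4, for endothelial 1 of 2, for muscle 1 of 3 and for lymphoid 1 of 1. The part of these cells, and of depth, in the let-7 values was not tested.

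The second comparison asked what dmPGE2 added to APAP. Again 0 of 10 members were called by edgeR, beside 0.278% of all miRNAs, and 0 of 10 had an unadjusted p below 0.05, beside 6.39%. Of the 10 members 9 lay below 0, with a median of -0.22, where all miRNAs had 50% below 0 and a median of 0.00. The member median was -0.07 without dmPGE2+APAP replicate 2, the shallowest library, and -0.11 without dmPGE2+APAP replicate 3 or without APAP replicate 1. Let-7i-5p had a mean of 2565 ± 297 CPM in APAP and, with both agents, of 2017 ± 213 (SD, n = 3), a log2 difference of -0.35 (SE 0.19, interval -0.75 to 0.06, edgeR's adjusted p 0.785).

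The lowest value was that of miR-98-5p, at -0.40 (SE 0.28, interval -0.98 to 0.19, edgeR's adjusted p 0.896). Without APAP replicate 1 it was -0.08, when let-7i-5p was lower at -0.25, and without dmPGE2+APAP replicate 1 it was -0.71. Without dmPGE2+APAP replicate 2 it was -0.17. Let-7g-5p stood at -0.26 (SE 0.20), let-7a-5p at -0.22 (SE 0.18) and let-7f-5p at -0.21 (SE 0.19), and only let-7e-5p lay above 0, at 0.05 (SE 0.23). Without dmPGE2+APAP replicate 2 the first 3 of these stood at -0.11, -0.12 and -0.07, and without APAP replicate 2 let-7e-5p was at -0.04. Scaling hardly moved this comparison: with library totals 9 of 10 members lay below 0, with a median of -0.23 beside -0.01 for all miRNAs.

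Under TMM 1 member was lower in dmPGE2+APAP than in APAP without overlap, let-7i-5p, beside 8.06% of all miRNAs, and 0 were higher, beside 5.83%. On library totals 3 were lower (let-7a-5p, let-7f-5p and let-7i-5p), beside 9.17%, and 0 were higher, beside 3.61%. Let-7i-5p was the member separated under both scalings.

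Livers given both agents were last set against Control. Once more 0 of 10 members were called by edgeR, beside 0.278% of all miRNAs, and 1 of 10, let-7f-5p, had an unadjusted p below 0.05, beside 10.6%. Let-7f-5p had a mean of 19407 ± 971 CPM in Control and, with both agents, of 14636 ± 2113 (SD, n = 3), a log2 difference of -0.41 (SE 0.19, interval -0.80 to -0.01, edgeR's adjusted p 0.429). Let-7a-5p stood at -0.35 (SE 0.18, interval -0.74 to 0.03, edgeR's adjusted p 0.481), and let-7d-3p at 0.39 (SE 0.25, interval -0.15 to 0.93). Without dmPGE2+APAP replicate 1 let-7d-3p was at 0.08, and at 0.58 to 0.60 without either of the other libraries of that group. Without dmPGE2+APAP replicate 2 let-7f-5p stood at -0.24 and let-7a-5p at -0.23.

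In this comparison 8 of 10 members lay below 0, with a median of -0.28, where all miRNAs had 53.9% below 0 and a median of -0.03. The member median was -0.10 without Control replicate 2 and -0.15 without dmPGE2+APAP replicate 2. With library totals the member median was -0.03 beside 0.19 for all miRNAs. A change of scaling shifts all miRNAs of a comparison nearly alike. The place of the family below the median of all miRNAs under both scalings is therefore no independent check. Let-7f-5p and let-7a-5p were lower without overlap under TMM, 2 of 10 beside 8.61%, and 0 were higher, beside 6.11%. On library totals 0 were lower, beside 3.33%, and 1, let-7d-3p, was higher, beside 15%.

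The remaining strands of the let-7 hairpins were scarce. Of 13 further names (3p arms, with let-7j and let-7k), 12 were in the table and 6 were tested, with 0 called in any comparison. All 6 had log2 changes above 0 after APAP (median 0.22), beside 161 of all 360 miRNAs. The same held with both agents against Control (median 0.37), beside 166 of 360. After APAP let-7e-3p stood at only 0.0017 (SE 0.38), let-7f-1-3p at 0.67 (SE 0.42) and let-7f-2-3p at 0.68 (SE 0.55). Let-7f-1-3p, at a mean of only 3.18 CPM, was higher in APAP than in Control without overlap, as were 8.61% of all miRNAs. Standard errors there ran from 0.34 for let-7b-3p to 0.55 for let-7f-2-3p, so a shared rise of these arms was not shown. Let-7a-1-3p, the most abundant, held 31.8, 46.2 and 11.6 CPM in Control, 37.3, 32.6 and 37.8 CPM in APAP, and 35.2, 34.1 and 44.8 CPM in dmPGE2+APAP. Its log2 difference after APAP was 0.27 (SE 0.36), with Control replicate 3 below every other library. Its sequence is identical to that of let-7c-2-3p in RefSeq, so these reads may come from either locus. Let-7b-3p followed at a mean of 8.67 CPM, with a log2 difference of 0.16 (SE 0.34).

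Several let-7 hairpins lie near hairpins of the miR-99, miR-100 and miR-125 families, which regulate growth signalling. The 11 partner strands listed include paralogs of these neighbours, and the hairpins of miR-99b and miR-125b-2 could not be placed here. Of the 11 strands, 10 were tested and 0 were called in any comparison. The 2 most abundant were miR-99a-5p and miR-100-5p. MiR-99a, whose hairpin (chromosome 16, 77598936 to 77599000) lies beside let-7c-1, gave 4664, 5397 and 5178 CPM in Control, 4848, 4934 and 4502 CPM in APAP, and 4861, 5338 and 5732 CPM in dmPGE2+APAP.

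MiR-100-5p, whose hairpin (chromosome 9, 41531425 to 41531504) lies beside let-7a-2, gave 723, 1391 and 1978 CPM in Control, 1473, 1414 and 1476 CPM in APAP, and 1602, 1668 and 1696 CPM in dmPGE2+APAP. With dmPGE2 before APAP, miR-99a-5p and miR-100-5p had log2 differences of 0.16 (SE 0.17) and 0.19 (SE 0.27) from APAP alone. Let-7c-5p and let-7a-5p, whose counts each also come from another locus, had -0.15 (SE 0.19) and -0.22 (SE 0.18) there. Of the 10 partners tested 8 lay above 0 in this comparison (median 0.16), beside 1 of 10 let-7 members and 180 of all 360 miRNAs. Those below 0 were miR-99b-3p, at -0.08 (SE 0.28), and miR-99a-3p, at -1.89 (SE 0.81). The latter strand comes from the same hairpin as miR-99a-5p and averaged only 0.98 CPM. The difference between the lists was not tested.

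Outside these lists, the miRNAs whose levels followed the summed 5p members most closely were sought among 188 with a mean of at least 10 CPM, by the root mean square difference of centred log2 CPM over 9 libraries. The nearest were miR-26a-5p (0.095), miR-186-5p (0.105), miR-21a-5p (0.113), miR-185-5p (0.115) and miR-107-3p (0.129), where the median miRNA stood at 0.349. MiR-26a-5p, for instance, averaged 24072 ± 3887 CPM in Control, 20649 ± 2214 in APAP and 19683 ± 2262 with both agents (SD, n = 3). Nearest to let-7d-3p were miR-328-3p (0.207), miR-339-5p (0.239) and miR-23b-3p (0.257), with a median of 0.511. MiR-328-3p held 31.3, 32.1 and 36.1 CPM in Control, 57.4, 38.4 and 43.3 CPM in APAP, and 47.6, 31.5 and 35.4 CPM in dmPGE2+APAP. The likeness covers the spread within groups as well as between them.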

How the data were processed

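Per the file headers, the authors deposited whole-number read counts per mature miRNA and TPM values. In these data TPM is the count over the library total times a constant, without a length term. Per the submitters' processing notes reads were mapped with Bowtie to mm10; version, counting tool, annotation and treatment of multiply fitting reads have no statement in the labels. Counts were analysed in R 4.3.3 with edgeR 4.0.16 (TMM, filterByExpr with minimum count 10 and total 15, robust quasi-likelihood fit of all 9 libraries with group means, Benjamini-Hochberg over all 360 tested miRNAs, threshold 0.05). Intervals follow from the F statistic. Alternatives used DESeq2 1.42.0, limma 3.58.1 (voom, and log2(TPM + 1)), RLE or library totals, other filters, 2-group fits, a replicate block and single libraries left out. The fit was tested on simulated data. PCR copies are not independent molecules, so depth covers counting error only. Arm ratios used raw counts, except that a read was added to both arms of hairpins with an arm that had no reads in some library. Named miRNAs were all 10 members, called members of the other lists or otherwise the 2 most abundant, and the nearest patterns. Members and lists were chosen with earlier results of these data known.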

Additional observations from a re-analysis of the deposited data

How the results depend on the processing

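With each of 18 alternatives 0 members were called in any comparison. All 30 member values lacked a call, and signs changed in 23 of 270 cases with all libraries and in 22 of 270 with 1 library left out. After APAP, library totals gave 0.11 for let-7a-5p, 0.19 for let-7b-5p, 0.080 for let-7c-5p, 0.092 for let-7d-5p, 0.053 for let-7f-5p and 0.24 for let-7g-5p (member median 0.15). The deposited TPM gave 0.12, 0.19, 0.091, 0.090, 0.058 and 0.24 for the same members and 0.029 for let-7e-5p (median 0.16), and RLE factors and DESeq2 each gave 0.0059 for let-7g-5p. For dmPGE2+APAP minus APAP, let-7b-5p became 0.0078 with RLE factors, 0.013 among miRNAs averaging 10 CPM or more, and 0.0070 with DESeq2. For dmPGE2+APAP minus Control, let-7b-5p became 0.18 with library totals and with TPM, let-7e-5p 0.076 with TPM, and miR-98-5p -0.034 without a filter and -0.020 with a replicate block. The member median there became -0.020 with TPM. With the TMM-scaled size as denominator the family share differed by -0.30 percentage points after APAP and -0.82 with both agents against Control. Both forms of the share use the same let-7 reads and differ only in the denominator. The causes of the other shifts were not tested.

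With single libraries left out, the median after APAP ran from -0.17 to 0.0033 (above 0 without Control replicate 2), let-7b-5p from -0.15 to 0.028, let-7d-5p from -0.27 to 0.031, let-7e-5p from -0.44 to 0.030 (above 0 without Control replicate 3), let-7g-5p from -0.13 to 0.12, let-7i-5p from -0.029 to 0.21 and miR-98-5p from 0.14 to 0.60. For dmPGE2+APAP minus APAP, the member median ran from -0.32 to -0.073, miR-98-5p from -0.71 to -0.075, let-7b-5p from -0.071 to 0.13, let-7d-5p from -0.19 to 0.0054, let-7e-5p from -0.036 to 0.15 and the let-7d arm ratio from -0.072 to 0.35. For dmPGE2+APAP minus Control, the member median ran from -0.35 to -0.099, let-7d-3p from 0.077 to 0.60, let-7b-5p from -0.11 to 0.092, let-7e-5p from -0.35 to 0.087 and miR-98-5p from -0.26 to 0.29.

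Between samples with the same replicate number, deviations from the group means had correlations from -0.25 to 0.17. The labels do not say whether the numbers pair the samples, and these correlations cannot decide it. With the replicate block the member medians were -0.10, -0.21 and -0.27, and 0 members were called. At the shallowest depth the scarcest member held 109 reads, which limits what its values can show.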
